A study of Mus musculus with 8 samples.

Results

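Retinoic acid, the active form of vitamin A, was followed through 9 genes that make, bind, break down or sense it: the synthesis genes Aldh1a1, Aldh1a2, Aldh1a3 and Rdh10, the retinaldehyde reductase gene Dhrs3, the degradation gene Cyp26b1, the binding protein genes Crabp1 and Crabp2, and the receptor gene Rarb. They were chosen by name and function, with earlier results of these data known. All 9 were measured, each by 1 probe set, among 22180 genes. The samples were kidneys of 8 mouse embryos of 1 litter at E14.5 of gestation, on 1-colour arrays. In 4 embryos Grb2 was deleted in the ureteric bud (genotype Grb2 UB-cKO, called Grb2-cKO here), and 4 were wild-type controls. Both kidneys of an embryo were pooled, so each array stands for 1 animal and for the RNA of all cell types of its kidneys. Which Cre line drives the deletion is not stated in those sources that were used here. The comparison asks which genes change when the ureteric bud lacks GRB2, an adaptor that passes signals of receptor tyrosine kinases such as RET to RAS and ERK.

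Cells make retinoic acid in a pair of oxidation steps. RDH10 turns retinol into retinaldehyde, DHRS3 turns it back, and the ALDH1A enzymes oxidise retinaldehyde irreversibly to retinoic acid. CRABP proteins bind the acid in the cytoplasm, CYP26 enzymes inactivate it, and RAR receptors, paired with RXR, bind DNA at response elements and switch genes on or off. In the developing kidney ALDH1A2 is known from the stroma, while ALDH1A1 and ALDH1A3 are known from the ureteric epithelium. Retinoic acid signalling is known to support expression of Ret in the ureteric bud, and thereby its branching.

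Receptors of this family bind repeats of a 6-base half-site. The 250 bases upstream of annotated starts in RefSeq (GRCm38.p6) were searched on both strands for the half-site form AGGTCA, the related form GGGTCA, the form AGTTCA or the form GGTTCA, alone or as direct repeats spaced by 5, 2 or 1 bases. Single half-sites that form part of a repeat were counted as single ones too. No window was found for Aldh1a3, Rdh10 or Crabp2. Windows were found for the other 6 of the 9 genes, 9 windows in all. A repeat spaced by 5 bases was found for 1 of them, Rarb, and in 0.0883% of all 32851 windows (29). No member window held a repeat spaced by 2 bases (0.174% of all windows did) or by 1 base (0.164%). A single half-site lay in 38.6% of all windows. A match is a description of the letters, not evidence of binding. The Rarb repeat lies at chr14:16575513-16575529, from 53 to 37 bases upstream of the annotated start, which is on the minus strand. It is shown because Rarb is a receptor gene known to respond to its own ligand, with the half-sites in capitals.
Rarb repeat: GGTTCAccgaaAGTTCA

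The upstream windows of Rarb (chr14:16575477-16575726, minus strand), of the second annotated start of Aldh1a1 (chr19:20601718-20601967, plus strand) and of Aldh1a2 (chr9:71215539-71215788, plus strand) are printed 5′ to 3′ along each gene, half-sites in capitals. The Rarb window shows where the repeat lies. The enzyme windows are shown because the results turn on the unequal change of these genes. Whether their letters bear on that change was not tested.
Rarb: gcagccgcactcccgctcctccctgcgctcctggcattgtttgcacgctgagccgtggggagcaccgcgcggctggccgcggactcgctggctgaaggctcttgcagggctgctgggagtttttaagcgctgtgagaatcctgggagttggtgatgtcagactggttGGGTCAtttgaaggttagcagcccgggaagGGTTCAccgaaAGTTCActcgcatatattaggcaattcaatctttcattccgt
Aldh1a1: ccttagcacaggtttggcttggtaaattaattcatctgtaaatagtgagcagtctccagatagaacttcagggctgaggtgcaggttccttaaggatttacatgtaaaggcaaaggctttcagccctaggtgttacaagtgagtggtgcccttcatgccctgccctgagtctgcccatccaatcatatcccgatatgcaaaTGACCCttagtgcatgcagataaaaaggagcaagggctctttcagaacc
Aldh1a2: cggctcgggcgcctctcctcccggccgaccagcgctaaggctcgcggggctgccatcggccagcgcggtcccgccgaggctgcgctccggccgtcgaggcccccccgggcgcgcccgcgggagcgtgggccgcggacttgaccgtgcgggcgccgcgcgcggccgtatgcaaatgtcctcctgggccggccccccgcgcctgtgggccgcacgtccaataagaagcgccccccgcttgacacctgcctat
The Aldh1a2 window is 77.6% G and C with no half-site, and the Aldh1a1 window shown is 46.4% with 1 half-site. The window of the first annotated start of Aldh1a1, not shown, is 42.8% with no half-site. The median over all windows without unknown bases is 52.4%. The Rarb window is 58.0% G and C and holds 3 half-sites.

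Median log2 values per array ran from 6.61 to 6.72, and the number of arrays limits the precision. Log2 fold changes below are Grb2-cKO minus control, with the standard error (SE) of a limma fit over all genes, and adjusted p-values are those of limma after Benjamini-Hochberg adjustment over 22180 genes, with a threshold of 0.05. The targeted gene Grb2 was at 8.68, 8.65, 8.61 and 8.66 in control replicates 1 to 4 and at 8.36, 8.17, 8.22 and 8.07 in Grb2-cKO replicates 1 to 4. All Grb2-cKO values lay below all controls (log2 fold change -0.45, SE 0.07, adjusted p = 0.0017). Over all genes 28.1% passed the threshold, 13.7% higher and 14.3% lower, and the groups did not overlap for 31.2%. With each array centred on its median, 2386 genes were higher and 4073 lower, against 3048 and 3179 on the deposited scale. The groups also differed in the mean of 3 Y-linked genes, which mark male embryos. The mean was 9.94 to 10.1 in the 4 Grb2-cKO embryos and 9.94 in control replicate 3, but 4.09 to 4.24 in control replicates 1, 2 and 4. Genotype is therefore largely confounded with embryo sex.

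Of the 9 retinoic acid genes, 4 rose, 3 fell and 2 did not pass. Both synthesis enzymes known from the ureteric epithelium, Aldh1a3 and Aldh1a1, fell, while Aldh1a2, the stromal enzyme, was within its spread. The binding protein genes Crabp1 and Crabp2, the reductase gene Dhrs3 and the receptor gene Rarb rose, and Cyp26b1 fell. The median log2 fold change of the 9 was 0.10, against 0.01 for all genes. The count of 7 called stands beside 28.1% of all genes, and 7 of the 9 did not overlap between groups, beside 31.2% of all genes. These differ by 1 gene each way: Cyp26b1 was called with overlapping groups, and Rdh10 was not called although its groups just failed to overlap. When the Y-linked mean entered as a covariate, 2 of the 9 passed, Aldh1a3 and Crabp1, while all 7 had an unadjusted p under 0.05. Among the controls only replicate 3 had high Y-linked values, so all values with this covariate rest largely on that 1 embryo. With it as the only control, a comparison chosen after seeing the data, Aldh1a3 was at -1.56 and Crabp1 at 0.92. With the covariate they were at -1.57 and 0.92, so this comparison is not a separate check. With the mean of 8 erythroid genes as a covariate 2 passed, Aldh1a3 and Aldh1a1. That mean did not overlap between the groups, so it is hard to separate from genotype. Standard errors were larger in that fit (0.23 against 0.10 for Aldh1a3), and 509 of all genes passed, against 6227. Values moved there too, with Crabp2 at 0.26 against 0.80, Crabp1 at 0.63 against 1.02 and Aldh1a1 at -1.42 against -0.97. Why a call was lost there was not tested, nor was the part of blood.

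**Figure D1:**
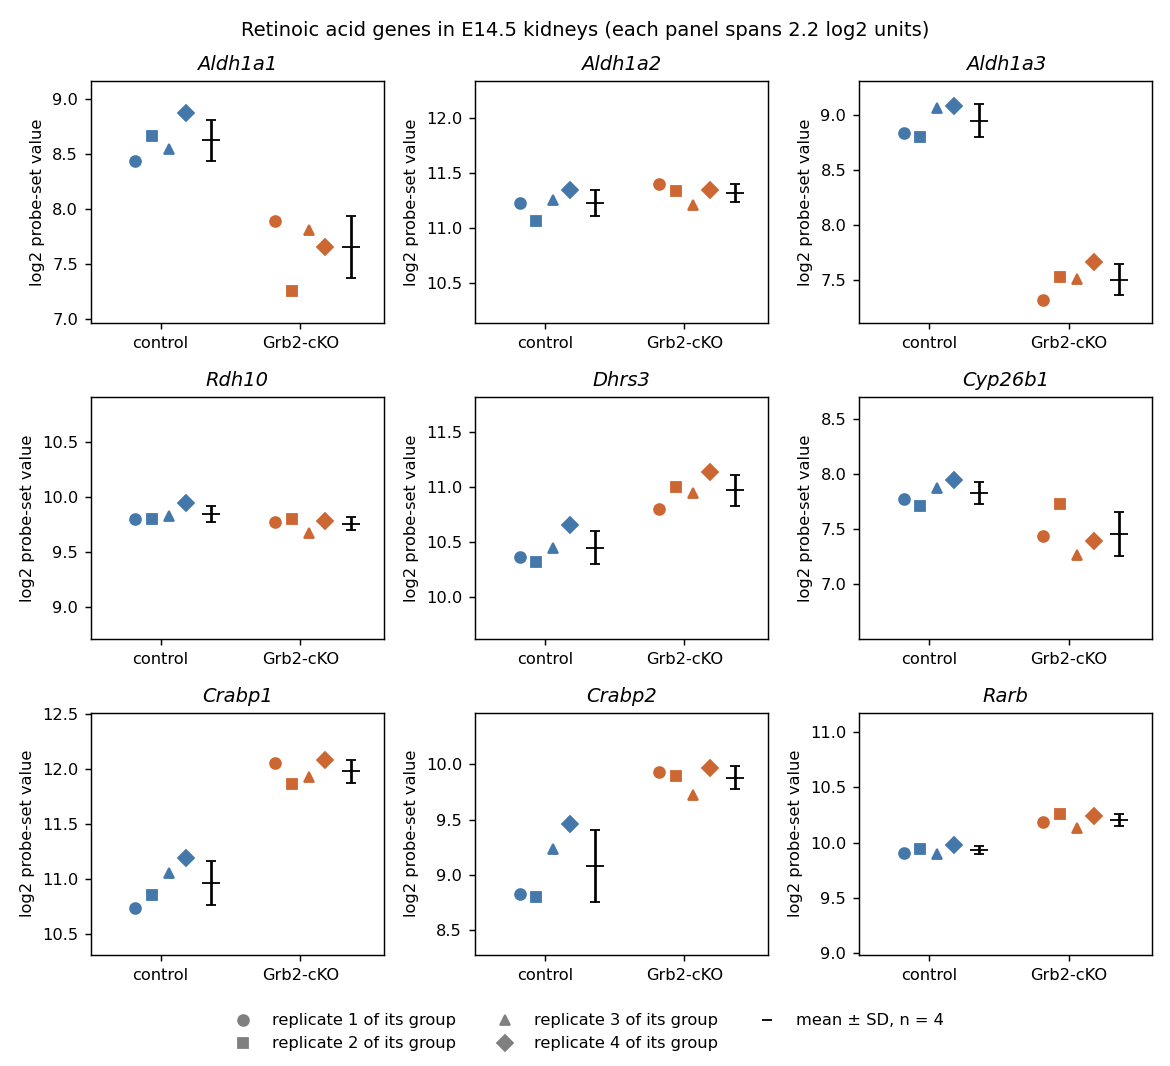
Deposited log2 probe-set values (vertical axis, log2 scale, 2.2 units in every panel) of the 9 genes in control and Grb2-cKO kidneys, 1 symbol per embryo, with mean ± SD of 4 embryos beside each group. The Aldh1a3 values sit at 8.80 to 9.08 in controls and 7.32 to 7.66 in Grb2-cKO, while the Aldh1a2 values of the groups overlap.

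Aldh1a3 fell most of the 9. It encodes a retinaldehyde dehydrogenase and stood at 8.83, 8.80, 9.06 and 9.08 in control replicates 1 to 4 and at 7.32, 7.52, 7.51 and 7.66 in Grb2-cKO replicates 1 to 4. The groups were separated by more than 1 log2 unit, and the embryos within each group lay close together. The log2 fold change was -1.44 (SE 0.10, adjusted p = 3.41e-05), which leaves 36.9% of the control level (95% interval 31.7% to 42.9%), a 2.71-fold fall. It was the 35th lowest log2 fold change of 22180 genes. It passed with each embryo left out in turn, at -1.49 to -1.38.

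Aldh1a1, the second enzyme of the epithelium, was at 8.43, 8.66, 8.54 and 8.87 in control replicates 1 to 4. In Grb2-cKO replicates 1 to 4 it was at 7.89, 7.26, 7.81 and 7.66. The groups did not overlap, and Grb2-cKO replicate 2 was the lowest embryo. The log2 fold change was -0.97 (SE 0.14, adjusted p = 0.00093), down to 51.0% of controls (interval 40.8% to 63.7%). With the Y-linked covariate it missed the threshold at -0.88 (adjusted p = 0.0675), and with the erythroid covariate it passed at -1.42 (adjusted p = 0.0423). Aldh1a7, a neighbouring gene close in sequence to Aldh1a1 and named after its values were seen, was at 6.55 ± 0.16 in controls and 6.55 ± 0.42 in Grb2-cKO (SD, n = 4 each, adjusted p = 0.9997).

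Aldh1a2, whose product is the main retinaldehyde dehydrogenase of the early embryo, was at 11.23, 11.07, 11.26 and 11.35 in control replicates 1 to 4 and at 11.40, 11.34, 11.21 and 11.35 in Grb2-cKO replicates 1 to 4. The groups overlapped, and 1 Grb2-cKO embryo lay above the highest control. Their means differed by 0.10 (SE 0.08, adjusted p = 0.398), the 95% interval runs from -0.07 to 0.28, and the upper end is 121.3% of the control level. With the erythroid covariate the value was -0.12 (adjusted p = 0.748).

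Rdh10, which catalyses the first oxidation step, was at 9.80, 9.80, 9.82 and 9.95 in control replicates 1 to 4. In Grb2-cKO replicates 1 to 4 it was at 9.78, 9.80, 9.67 and 9.78. The groups touched at 9.80, with the highest Grb2-cKO value just below the lowest control. The difference of -0.09 (SE 0.07, adjusted p = 0.395) had a 95% interval from -0.24 to 0.06.

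Epithelial and stromal enzymes were then set against each other within each embryo, by subtracting log2 values. The absolute size of such a difference has no meaning between probe sets, so only its shift between groups was read, with 3 pairs compared. Aldh1a2 minus Aldh1a1 was 2.40 to 2.79 in controls and 3.40 to 4.09 in Grb2-cKO, a shift of 1.07, or a ratio 2.11-fold higher. Aldh1a2 minus Aldh1a3 was 2.19 to 2.40 in controls and 3.68 to 4.08 in Grb2-cKO, a shift of 1.54, or 2.91-fold. Neither difference overlapped between the groups. Both shifts had a two-sided exact permutation p of 0.0286, the smallest that 70 assignments of embryos allow (0.0429 adjusted over the 3 pairs). Aldh1a1 minus Aldh1a3 overlapped, at -0.52 to -0.13 in controls and -0.27 to 0.57 in Grb2-cKO, with a shift of 0.47 that did not pass (exact permutation p = 0.0857, also after adjustment). The overlap rested on Grb2-cKO replicate 2 at -0.27, since the other 3 lay above the highest control, and without it the shift was 0.61 (exact permutation p = 0.0571, the smallest that 3 against 4 embryos allow). Between these groups the stromal and the epithelial enzymes therefore changed unequally, and an unequal change between the epithelial enzymes was not detected. The pairs were not tested with the Y-linked or erythroid covariate, so their shifts are not separated from embryo sex.

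**Figure D2:**
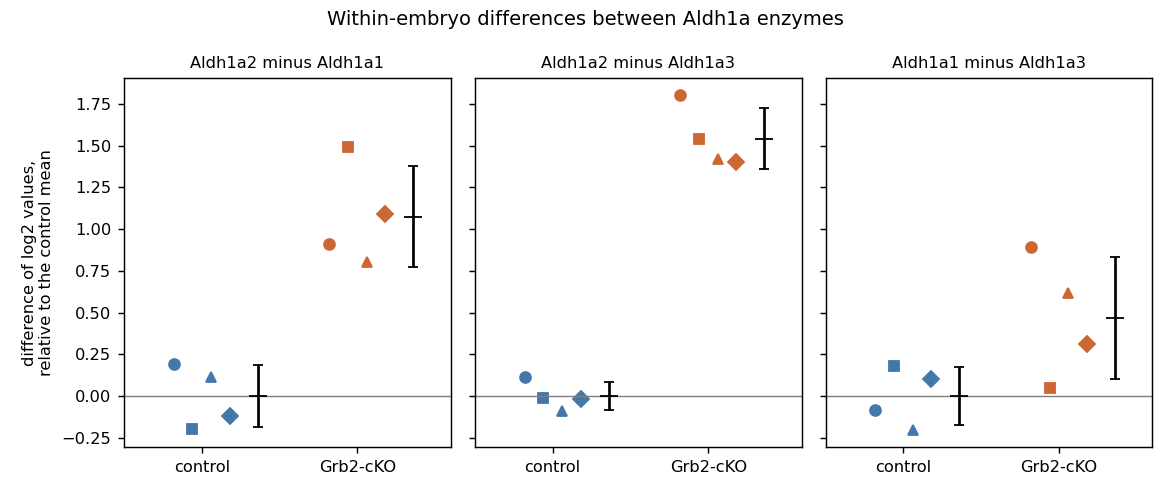
Within-embryo differences of log2 values for 3 pairs of Aldh1a enzymes, drawn relative to the control mean of each pair (vertical axis, log2 units), 1 symbol per embryo with mean ± SD of 4 embryos. Both differences from Aldh1a2 lie higher in all 4 Grb2-cKO embryos, by 1.07 and 1.54 on average, and Aldh1a1 minus Aldh1a3 overlaps between groups.

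Markers of both compartments were read too, with 28.1% of all genes called. Stromal markers rose while the stromal enzyme gene Aldh1a2 did not pass. Among 20 ureteric epithelium markers 14 fell, none rose and 6 missed the threshold, with a median of -0.46. Their mean level ranged from 9.01 to 9.13 over the controls and from 7.98 to 8.27 over Grb2-cKO. Their changes were uneven. Slco4c1 and Ros1, with the smallest p of the list, had log2 fold changes of -3.76 (SE 0.18) and -2.72 (SE 0.15). The epithelial genes Epcam, Krt18 and Cdh1, named after their values were seen, were at -1.14 (SE 0.14), -0.63 (SE 0.09) and -0.17 (SE 0.12, adjusted p = 0.335). Among 20 stromal markers 14 rose, none fell and 6 missed the threshold, with a median of 0.62. Their mean level ranged from 10.23 to 10.41 over the controls and from 10.77 to 10.99 over Grb2-cKO. Postn, a matrix protein gene, and Dlk1, an imprinted gene of mesenchyme, led the list by p, at 0.83 (SE 0.09) and 1.48 (SE 0.12). In whole kidneys fewer cells of a type and less RNA per cell cannot be told apart. The part of cell proportions in the changes of the retinoic acid genes was not tested.

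Dhrs3, which reduces retinaldehyde to retinol and is known to be induced by retinoic acid, was at 10.37, 10.32, 10.45 and 10.66 in control replicates 1 to 4 and at 10.80, 11.00, 10.95 and 11.14 in Grb2-cKO replicates 1 to 4. All Grb2-cKO embryos lay above the highest control. It rose by 0.52 (SE 0.10, adjusted p = 0.00309), to 143.9% of the control level (123.7% to 167.4%). With the Y-linked covariate it missed the threshold at 0.52 (SE 0.17, adjusted p = 0.108), as it did with the erythroid covariate at 0.48 (adjusted p = 0.281).

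Cyp26b1, a cytochrome that inactivates retinoic acid, was at 7.78, 7.71, 7.88 and 7.94 in control replicates 1 to 4. In Grb2-cKO replicates 1 to 4 it was at 7.44, 7.73, 7.27 and 7.40. Replicate 2 of Grb2-cKO overlapped the controls, and 3 of 4 lay below them. The log2 fold change was -0.37 (SE 0.10, adjusted p = 0.0235), which leaves 77.4% of the control level (66.0% to 90.9%). The call was the least firm of the 7. Leaving out Grb2-cKO replicate 1 (-0.36, adjusted p = 0.0518), 3 (-0.30, 0.0665) or 4 (-0.35, 0.0573), or control replicate 3 (-0.35, 0.0583) or 4 (-0.33, 0.0608), ended it, with a range of adjusted p from 0.0043 to 0.0665 over the 8 embryos left out. It was lost with the Y-linked covariate (-0.42, 0.202) and the erythroid covariate (-0.54, 0.243).

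Crabp1, a cytoplasmic binding protein gene, had the largest rise of the 9. It was at 10.74, 10.86, 11.06 and 11.19 in control replicates 1 to 4 and at 12.05, 11.86, 11.93 and 12.08 in Grb2-cKO replicates 1 to 4. The groups did not overlap, and the Grb2-cKO embryos lay closer together than the controls. It rose by 1.02 (SE 0.10, adjusted p = 0.000178), which is 2.02-fold (1.72-fold to 2.38-fold). It ranked 258th among the highest log2 fold changes of 22180 genes. The value was 0.92 with the Y-linked covariate (adjusted p = 0.0232) and missed the threshold at 0.63 with the erythroid covariate (adjusted p = 0.114).

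Crabp2, which carries retinoic acid to its nuclear receptor, was at 8.83, 8.80, 9.23 and 9.46 in control replicates 1 to 4. In Grb2-cKO replicates 1 to 4 it was at 9.93, 9.90, 9.73 and 9.97. The controls were spread more widely than for any other of the 9 genes (SD 0.32), yet all lay below the lowest Grb2-cKO embryo. It rose by 0.80 (SE 0.14, adjusted p = 0.00259), 1.74-fold (1.39-fold to 2.18-fold). With the Y-linked covariate the value was 0.64 (adjusted p = 0.149), and with the erythroid covariate 0.26 (adjusted p = 0.661). The erythroid mean was 6.47, 6.64, 6.701 and 6.96 in control replicates 1 to 4 and 7.23 to 7.84 in Grb2-cKO. Control replicate 4 was the highest control for this mean and for all 9 retinoic acid genes, Crabp2 and those that fell included. The part of blood in the Crabp2 value was not tested, since this mean did not overlap between the groups and cannot be told apart from genotype. CRABP proteins are also known from neural crest derivatives, and of 12 markers of crest, glia and neurons measured 2 rose, 1 fell and 9 did not pass, with a mean of 6.63 to 6.79 in controls and 6.90 to 7.08 in Grb2-cKO. The leading genes of that list went both ways, Stmn2 at 2.48 (SE 0.16) and Elavl4 at -0.93 (SE 0.10). Sox10, a defining crest gene named after its values were seen, was at -0.02 (SE 0.11, adjusted p = 0.925).

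Rarb, the receptor gene whose upstream repeat is printed above, changed little but evenly. It was at 9.91, 9.94, 9.90 and 9.98 in control replicates 1 to 4 and at 10.19, 10.26, 10.13 and 10.24 in Grb2-cKO replicates 1 to 4. All Grb2-cKO embryos lay above all controls. It rose by 0.27 (SE 0.06, adjusted p = 0.00876), which is 120.8% of the control level (109.7% to 133.0%). With the Y-linked covariate it missed the threshold at 0.31 (SE 0.11, adjusted p = 0.134), as it did with the erythroid covariate at 0.22 (adjusted p = 0.441).

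**Figure D3:**
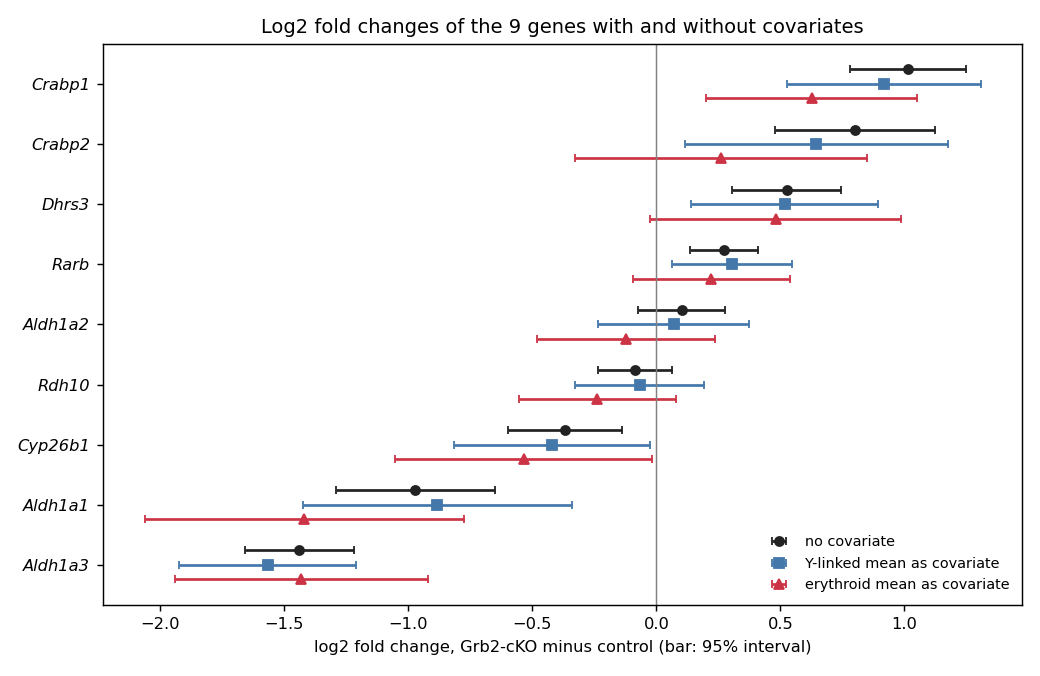
Log2 fold changes of the 9 genes, Grb2-cKO minus control (horizontal axis, log2 units), with 95% intervals from limma without a covariate (black circles), with the Y-linked mean (blue squares) or the erythroid mean (red triangles) added as a covariate. The signs match except for Aldh1a2, at 0.10 and -0.12 without and with the erythroid covariate. Crabp2 moves from 0.80 to 0.26 with that covariate.

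Beyond the 9 genes, the rest of the pathway was read from 4 lists. Of 30 genes for uptake, storage and oxidation of retinol, 5 rose, none fell and 25 did not pass (median 0.04). The share of all genes called, 28.1%, was higher. Adh1, an alcohol dehydrogenase gene, was at 8.81 ± 0.20 in controls and 9.53 ± 0.08 in Grb2-cKO, a rise of 0.72 (SE 0.10, adjusted p = 0.000686). Averaged over its 2 probe sets the rise was 0.40 (SE 0.08, adjusted p = 0.0049). Stra6, the retinol transporter gene, was at 9.69 ± 0.37 and 10.50 ± 0.11, a rise of 0.80 (SE 0.16, adjusted p = 0.00435). The reductase genes Dhrs7 and Dhrs4 rose by 0.39 (SE 0.08) and 0.29 (SE 0.07). In limma with the erythroid covariate 0 of these 4 passed (adjusted p = 0.111, 0.858, 0.655 and 0.474). Adh1 was at 0.77 (SE 0.23), Stra6 at 0.13 (SE 0.26), Dhrs7 at 0.16 (SE 0.16) and Dhrs4 at 0.22 (SE 0.15). The fifth was Ttr, a carrier gene of thyroid hormone and of the retinol-binding protein in blood, at 0.81 (SE 0.25), named after its values were seen. In limma 0 of these 5 passed with the Y-linked covariate, and 4 had an unadjusted p under 0.05.

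Of 6 genes for other routes of breakdown and delivery, 1 fell, none rose and 5 did not pass (median -0.17). Over all genes 28.1% were called. Fabp5, which carries retinoic acid and fatty acids to PPARD, was at 9.54, 9.48, 9.75 and 9.76 in control replicates 1 to 4 and at 9.33, 9.13, 9.11 and 9.05 in Grb2-cKO replicates 1 to 4. It fell by 0.48 (SE 0.09, adjusted p = 0.00393), and missed the threshold with the Y-linked covariate (-0.60, adjusted p = 0.0538). With the erythroid covariate it passed at -0.82 (adjusted p = 0.0444). Cyp26a1, the degradation enzyme gene that retinoic acid induces most strongly in many cells, was at -0.21 (SE 0.10, adjusted p = 0.145). Cyp2s1 and Cyp4v3 were at -0.24 (SE 0.10, adjusted p = 0.127) and 0.30 (SE 0.15, adjusted p = 0.169).

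Of 17 receptor and co-regulator genes, 7 rose, 1 fell and 9 missed the threshold (median 0.17), beside 28.1% of all genes called. Rara, the receptor of the same family known from many embryonic tissues, was at 8.26, 8.29, 8.40 and 8.53 in control replicates 1 to 4 and at 8.81, 8.88, 8.82 and 8.93 in Grb2-cKO replicates 1 to 4. It rose by 0.49 (SE 0.08, adjusted p = 0.00133). Rarg, the other receptor paralogue, rose by 0.39 (SE 0.07, adjusted p = 0.00243), and Rxra, a gene of the partner receptors, by 0.38 (SE 0.07, adjusted p = 0.00258). The other partner genes, named after their values were seen, did not pass, with Rxrb at 0.01 (adjusted p = 0.976) and Rxrg at 0.17 (adjusted p = 0.271). With Rarb, all RAR genes lay higher in all 4 Grb2-cKO embryos than in any control, while the groups did not overlap for 31.2% of all genes. Zfp423, a zinc finger co-factor of these receptors, rose by 0.47 (SE 0.07, adjusted p = 0.000752). The 1 gene that fell was Tbl1xr1, a subunit of co-repressor complexes, at -0.42 (SE 0.08, adjusted p = 0.00277), named after its values were seen. In limma 0 of these 8 passed with the Y-linked covariate, and 7 had an unadjusted p under 0.05. Their values there were 0.45 for Rara, 0.44 for Rarg, 0.31 for Rxra and 0.39 for Zfp423, and the median of the list was 0.25 against 0.17. With the erythroid covariate these 4 stood at 0.35, 0.50, 0.28 and 0.38, and 0 of the 4 passed in limma (adjusted p = 0.306, 0.118, 0.356 and 0.201).

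Of 26 genes known to respond to retinoic acid in some tissue, 6 rose, 4 fell and 16 missed the threshold (median -0.05). This count stands beside 28.1% of all genes called. Ret, the GDNF receptor gene of the ureteric tip, was at 9.59, 9.51, 9.73 and 9.77 in control replicates 1 to 4 and at 7.71, 7.14, 6.96 and 6.94 in Grb2-cKO replicates 1 to 4. It fell by 2.46 (SE 0.16, adjusted p = 3.0e-05), and it is also a marker of the ureteric list above. Dleu7 and the homeobox gene Hoxb2 fell by 0.65 (SE 0.08) and 0.59 (SE 0.08), while Tgm2, a transglutaminase gene, rose by 0.75 (SE 0.11). Of the other Hox genes in the list, named after their values were seen, Hoxa2 rose by 0.70 (SE 0.10) and Hoxb4 fell by 0.72 (SE 0.15). Hoxa5 (0.23, adjusted p = 0.225), Hoxb1 (-0.16, adjusted p = 0.232) and Hoxb5 (-0.16, adjusted p = 0.222) did not pass. Of the 10 changed genes 3 passed with the Y-linked covariate in limma, and 8 had an unadjusted p under 0.05. Among the lost calls, the values there were -0.54 for Hoxb2, -0.74 for Hoxb4 and 0.56 for Tgm2. The homeobox gene Meis1, named after its values were seen, was at 0.47 there against 0.39. With the erythroid covariate Ret (-3.21) and Hoxb2 (-0.83) passed, while Dleu7 (-0.48) and Tgm2 (0.63) did not.

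**Figure D4:**
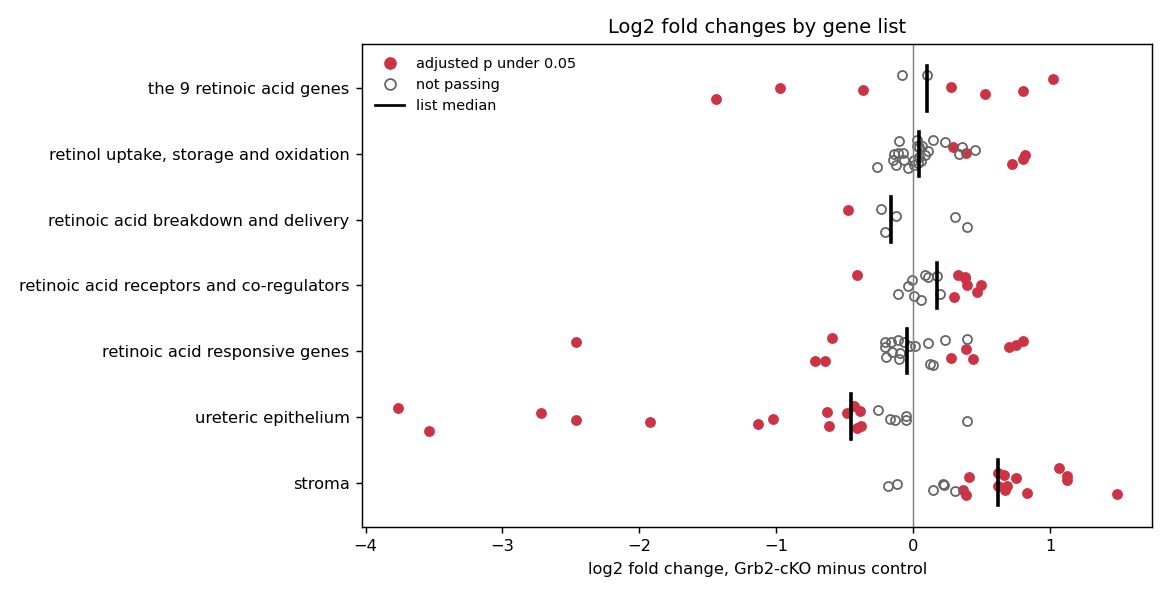
Log2 fold change of every measured gene (horizontal axis, Grb2-cKO minus control) in the 9 retinoic acid genes, the 4 other pathway lists and the ureteric and stromal marker lists, with filled points past an adjusted p of 0.05, open points not passing and a black bar at each list's median. The medians are 0.10 for the 9 genes, -0.46 for ureteric markers and 0.62 for stromal markers, and vertical scatter within a list has no meaning.

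The genes whose values ran most closely alongside the Aldh1a enzymes over the 8 arrays were named by Pearson's r, as a description that includes the group difference. For Aldh1a3 they were Mctp2 (r = 0.995), Zdhhc21 (0.994) and Emx2 (0.994), the last a homeobox gene of the ureteric epithelium that fell by 0.48 (SE 0.07, adjusted p = 0.000732). For Aldh1a1 they were Pfkfb3 (0.993), Ciao1 (0.992) and Med7 (0.990). For Aldh1a2, whose groups overlapped, they were Vmn1r45 (0.945), Doc2b (0.941) and Cst6 (0.939), none of which passed the threshold (adjusted p = 0.0628, 0.273 and 0.300).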

How the data were processed

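Kidneys were pooled per embryo and RNA was extracted on a micro-scale column and 200 ng was amplified and biotin-labelled, per the labels' protocols. The authors deposited log2 probe-set values. The Transcriptome Analysis Console is named in the submitters' processing notes, and the background correction, summarization and normalization were not stated in the sources used. That the values are log2 was read from their range of 1.25 to 14.1. No detection calls or batch records were used, so a batch could not be tested.

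Probe sets were named through the platform annotation (23521 of 41345 had 1 gene symbol, 1814 several and 16010 none), with symbols updated through Entrez identifiers to the GRCm38.p6 RefSeq table. The probe set of highest mean stood for a gene, which left 22180 genes. The groups were fitted with limma 3.58.1 under R 4.3.3 (lmFit and eBayes, all 8 arrays, no covariate) and adjusted by Benjamini-Hochberg over all genes. The fit was checked on simulated data. Enzyme pairs were tested with two-sided exact permutation tests (SciPy 1.17.1) over 70 assignments.

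The members and lists were chosen with earlier results of these data known. Named genes were the 9 members, Grb2, the 4 of smallest p in each other pathway list and the 2 of smallest p in a marker list. Named too were the 3 most correlated with each Aldh1a enzyme, leaving out members and predicted, clone-named or small RNA genes. Others are marked as named after their values were seen. Listed genes without a single-symbol probe set were not analysed here. Replicate numbers follow the order of the records and pair nothing. The labels used say no more of the embryos than that they were separate animals of 1 litter. Embryo sex was read from no label, and Y-linked values were high in 4 Grb2-cKO embryos and 1 control.

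Alternatives were quantile normalization, median centring, leaving out the dimmest 25% of genes, averaging the probe sets of a gene, adjustment over all probe sets, a trended robust spread, array weights, the Y-linked or erythroid mean as a covariate, a threshold of 0.01 and leaving out each embryo. Using control replicate 3 as the only control was added after seeing the data.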

Additional observations from a re-analysis of the deposited data

Results flagged for a closer look

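Rdh10 in control replicate 4 stood apart from the other controls, at 9.95 against 9.80 to 9.82. Adh1 in Grb2-cKO replicate 1 stood apart below the rest of its group, at 9.42 against 9.56 to 9.58. These 2 values came from 52 groups of 4 examined, where chance marks about 1 group in 20.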

How the results depend on the processing

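Of 162 values of the 9 genes under 18 alternatives each, 141 kept their direction and their side of the threshold, 20 kept their direction and lost the threshold, and 1 changed sign (Aldh1a2 at -0.12 with the erythroid covariate). The cause was not tested. Leaving out dim genes, averaging probe sets, adjusting over all probe sets and the trended robust spread left the log2 fold changes of the 9 as they were. Direction could not change in those settings, so the count of kept directions includes values fixed in advance. The number of the 9 past the threshold was 2 with the Y-linked covariate and 2 with the erythroid covariate. With control replicate 3 as the only control, the lone control is assumed to vary like the other group, so no count is given. It was 7 with quantile normalization, median centring and without dim genes, and 6 at a threshold of 0.01. Leaving out 1 embryo gave 6 or 7. Over all genes 1246, 509 and 285 passed in those 3 settings, against 6227. The mean of probe sets could change no member, since each had 1, but moved Adh1 from 0.72 to 0.40. Without 1 embryo, the shift of Aldh1a2 minus Aldh1a1 was 0.93 to 1.16 that of Aldh1a2 minus Aldh1a3 1.46 to 1.59 and that of Aldh1a1 minus Aldh1a3 0.33 to 0.61. A test of 3 against 4 embryos cannot give an exact p below 0.0571, so a missed threshold there says nothing about stability. Depth has no counterpart on these arrays, and without detection calls a dim probe set could not be told from background. None of the 9 lay in the dimmest 25% of genes.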

Other observations

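Control replicate 4 held the highest value of the 4 controls for all 9 retinoic acid genes, those that fell in Grb2-cKO and those that rose alike. Over all genes it was the highest control for 31.6%. It was also the highest control for 9 of 9 with each array centred on its median and for 8 of 9 after quantile normalization (33.5% and 28.6% of all genes). Control replicate 2 was the lowest control for 5 of the 9, against 20.3% of all genes. In the Grb2-cKO group no embryo was highest for more than 4 of the 9, and replicate 3 was lowest for 5 and highest for 0 under each of these scalings (lowest for 20.4% of all genes as deposited). This was looked at after the values were seen, the 9 genes are not independent of each other, and its cause was not tested.

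Markers of tissues that could be dissected with the kidney, and of further cell types within it, gave these values, beside 28.1% of all genes called. Of 19 gonad and adrenal genes measured, 1 rose, 2 fell and 16 did not pass (median 0.02), with means of 6.30 to 6.44 in controls and 6.30 to 6.51 in Grb2-cKO. Hsd3b6, a steroid dehydrogenase gene, rose by 1.37 (SE 0.25) and Bmp2 fell by 0.80 (SE 0.11). Cyp17a1 and Star, steroid synthesis genes named after their values were seen, were at -0.12 (SE 0.08, adjusted p = 0.283) and -0.09 (SE 0.13, adjusted p = 0.663). Of 10 mesothelial genes 4 rose and 6 did not pass (median 0.34), led by Upk3b at 0.89 (SE 0.12) and Lrrn4 at 0.68 (SE 0.15), with means of 6.94 to 7.14 and 7.28 to 7.50. Of 8 podocyte genes 6 rose and 2 did not pass (median 0.72), led by Thsd7a at 1.11 (SE 0.11) and Podxl at 0.92 (SE 0.14). Of 12 nephron progenitor genes 10 fell and 2 did not pass (median -1.14), led by Gdnf and Uncx at -1.73 (SE 0.11) and -1.29 (SE 0.09). Of 10 macrophage genes 7 rose and 3 did not pass (median 0.86), led by Fcer1g at 1.91 (SE 0.15) and C1qb at 1.67 (SE 0.15), and of 8 erythroid genes 4 rose and 4 did not pass (median 0.84), led by Slc4a1 at 1.35 (SE 0.16) and Hba-x at 1.30 (SE 0.20). Their part in the changes of the retinoic acid genes was not tested. The erythroid mean was used as a covariate, but it did not overlap between the groups.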
